A study of Mus musculus with 6 samples.

Results

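Genes of triglyceride synthesis and breakdown were followed in mouse lung: Gpam, Agpat2, Lpin1, Dgat1 and Dgat2, 5 genes on the synthetic side, and Pnpla2, Pnpla3, Lipe, Mgll and Abhd5, 5 on the lipolytic side. Their probe sets were taken by name, as every one whose platform annotation gives 1 of these symbols and no other. This found 21 probe sets for 10 genes, out of 34945 probe sets for 18193 genes on the array. The genes, and the lists and pairs below, were chosen with earlier results of these data known. Shares of all tested genes beside their counts are therefore a description. The samples were lungs of 6 wild type mice, 3 fed a control diet and 3 fed a high fat diet, with 1 Affymetrix array per mouse. Neither strain, age and sex nor the composition and length of the diets is stated in the labels. The sample numbers in the labels lie in separate ranges for the 2 diets, so anything else that differs with them cannot be told apart from diet. Values are MAS5 signals, in which the probes of a probe set are condensed to 1 brightness per array on a linear scale, and the authors' arrays share a common trimmed mean of 500. A signal is therefore relative to the rest of its array. Signals of different probe sets are not read as relative transcript amounts. They are, however, ranked by brightness, and those of cell type markers are summed.

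Triglyceride is built on a glycerol phosphate backbone. Gpam, the mitochondrial glycerol-3-phosphate acyltransferase, adds the first acyl chain, Agpat2 adds the next to give phosphatidic acid, the phosphatase lipin 1 (Lpin1) removes the phosphate, and Dgat1 or Dgat2 attaches the last chain to diacylglycerol. Breakdown runs in the opposite sense: adipose triglyceride lipase (Pnpla2), with its coactivator Abhd5, releases the first fatty acid, hormone-sensitive lipase (Lipe) acts mainly on diacylglycerol, and Mgll splits monoacylglycerol. Pnpla3 is a lipid droplet protein related to Pnpla2 and is known as a gene of the fed, insulin-stimulated state. In lung, alveolar type II cells use the early steps of the synthetic route to make surfactant phospholipid, whereas adipocytes carry the whole pathway at a high level.

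Pnpla3 and Agpat2 rose in high fat lungs, by 2.81-fold and 2.4-fold, and no gene of the 10 fell. Since these were the genes that passed the test, their promoters are shown here, from 250 bases before to 50 bases after the annotated start, 5′ to 3′ on the strand of the gene, from RefSeq on build GRCm38.p6. The Pnpla3 window lies at chr15:84167566-84167865 on the plus strand and the Agpat2 window at chr2:26604368-26604667 on the minus strand. Capitals mark matches, on either strand, to the GC box (GGGCGG), the inverted CCAAT box (ATTGG), the E box (CACGTG), the nuclear receptor motif (AGGTCA) or a sterol response element (TCACNCCAC).
Pnpla3: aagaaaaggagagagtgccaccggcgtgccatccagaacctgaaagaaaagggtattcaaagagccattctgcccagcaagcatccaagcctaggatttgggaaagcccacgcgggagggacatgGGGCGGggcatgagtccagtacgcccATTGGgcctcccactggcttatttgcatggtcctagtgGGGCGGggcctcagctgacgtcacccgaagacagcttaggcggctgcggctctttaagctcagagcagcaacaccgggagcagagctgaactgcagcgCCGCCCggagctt
Agpat2: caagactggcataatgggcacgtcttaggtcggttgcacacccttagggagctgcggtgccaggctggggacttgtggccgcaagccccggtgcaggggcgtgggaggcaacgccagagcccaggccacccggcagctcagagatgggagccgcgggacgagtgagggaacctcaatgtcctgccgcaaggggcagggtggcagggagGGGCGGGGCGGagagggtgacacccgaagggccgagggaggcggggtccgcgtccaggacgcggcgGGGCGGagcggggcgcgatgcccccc
The Pnpla3 window held 3 GC boxes and 1 inverted CCAAT box. The Agpat2 window held 3 GC boxes, 2 of which overlap. Neither window held the E box, the nuclear receptor motif or the sterol element, which says only that these letters do not occur there. Among all 32851 RefSeq promoter windows of this length, 35.7% held a GC box, 37.4% an inverted CCAAT box, 7.15% an E box, 16.3% the nuclear receptor motif and 1.24% the sterol element. Entries were found for 8 of the 10 genes, with 11 windows, and not for Dgat1 and Dgat2. Of the 11 windows, 8 held a GC box, 2 an inverted CCAAT box, 2 an E box, 3 the nuclear receptor motif and 0 the sterol element. A match is a stretch of letters and was not tested as a binding site.

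All 10 genes had a probe set bright enough to test. Each gene is represented by its brightest probe set, and a gene is called when the adjusted p of limma, corrected by Benjamini-Hochberg over all 12689 tested genes, is under 0.05. By this rule 2 of 10 genes were called higher and 0 lower, against 4.56% of all tested genes called higher and 2.2% called lower. The median log2 difference, high fat minus control, was 0.43 over the 10 genes and 0.056 over all tested genes. Signals of the high fat mice lay wholly above those of the control mice for 5 of 10 genes (Gpam, Agpat2, Dgat1, Pnpla3 and Lipe), and for 19.7% of all tested genes. With the brightest probe sets, all 10 log2 differences were above 0, as were 7159 of all 12689 tested genes, with medians of 0.46 for the 5 synthetic genes and 0.39 for the 5 lipolytic genes. With the mean over a gene's probe sets 8 of the 10 were above 0, and with the most variable probe set also 8. The median of all tested genes was then -0.029 and -0.028. The number called depended on the scale of the arrays. Although the trimmed means were equal, the median signal was 145.1, 150.3 and 143.3 in the control mice. In the high fat mice it was 121.2, 113.4 and 128.7, without overlap. Centring each array on its median moved the median of all tested genes to 0.331 and that of the 10 genes to 0.7, and 7 of 10 genes were then called higher, against 24.1% of all tested genes. Of all called genes, 95.4% were then higher, against 67.4% without centring. Without a trend of variance on brightness, 1 of 10 was called, against 0.827% of all tested genes called higher. With 1 mouse left out 1 to 3 were called, against 1.03% to 2.86%, and without replicate 1 of both diets 1, against 1.95%.

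**Figure D1:**
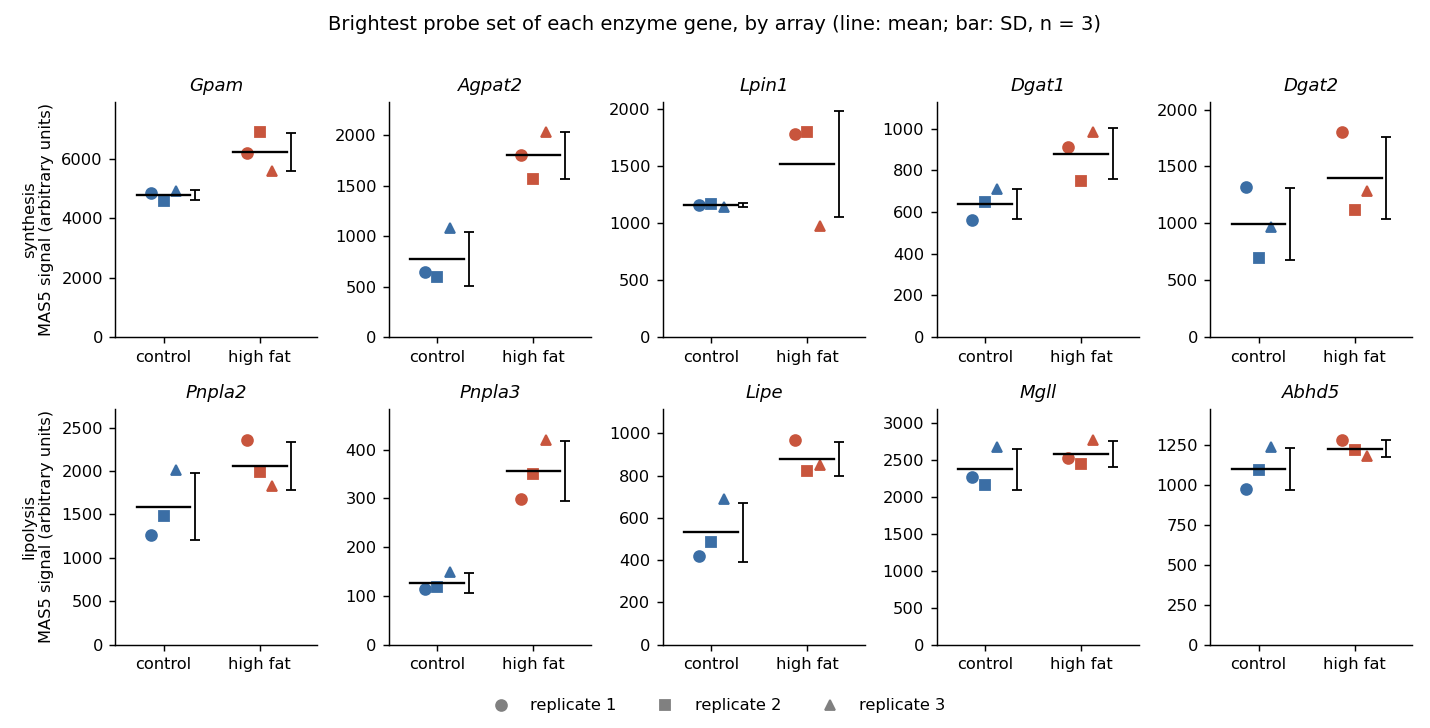
MAS5 signal (linear, arbitrary units, axes from 0) of the brightest probe set of each of the 10 genes on the 6 arrays, with the group mean as a line, the SD (n = 3) as a bar and 1 marker shape per replicate number. The high fat arrays of Pnpla3 (299 to 420) and Agpat2 (1570 to 2030) lie clear of the control arrays (113 to 149 and 592 to 1081), whereas Abhd5 and Mgll overlap.

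The first acyltransferase differed little. Gpam had signals of 4828, 4584 and 4917 in the control mice and 6200, 6888 and 5581 in the high fat mice. The groups did not overlap, but the 1.3-fold difference (log2 0.38, SE 0.12) was not called (limma adjusted p = 0.0881). A dimmer Gpam probe set went from 425 ± 42.6 to 377 ± 67.8 (SD, n = 3 each) and was not called either (limma adjusted p = 0.531 over probe sets).

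Agpat2, loss of which causes congenital generalised lipodystrophy in humans, had signals of 649, 592 and 1081 in the control mice and 1804, 1570 and 2030 in the high fat mice. Every high fat mouse was above every control mouse, and control replicate 3 stood above the other controls. The mean went from 774 ± 268 to 1801 ± 230 (SD, n = 3 each), a 2.4-fold rise with a 95% interval of 1.69-fold to 3.41-fold (limma adjusted p = 0.0166). The call was lost without control replicate 1 (log2 1.16, limma adjusted p = 0.0518) and without control replicate 2 (log2 1.1, limma adjusted p = 0.0654), without replicate 1 of both diets (log2 1.16, limma adjusted p = 0.0715), and without a trend of variance on brightness (limma adjusted p = 0.0665).

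Lipin 1 acts as a phosphatidate phosphatase in the membrane and as a transcriptional coregulator in the nucleus. The brighter Lpin1 probe set gave 1159, 1168 and 1136 in the control mice and 1774, 1793 and 976 in the high fat mice. Control mice were almost identical (coefficient of variation 1.42%), while the high fat mice split, with replicates 1 and 2 above and replicate 3 below every control. The difference was not called (log2 0.34, SE 0.22, limma adjusted p = 0.372). Without high fat replicate 3 it was log2 0.63 and called (limma adjusted p = 0.0356). The other Lpin1 probe set gave 707, 674 and 705 against 1192, 796 and 600, with high fat replicate 3 again lowest, and its log2 difference was -0.01 without high fat replicate 1.

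The final step is shared by enzymes of unrelated sequence, Dgat1 of the endoplasmic reticulum and Dgat2, which also sits on lipid droplets. Dgat1 had signals of 564, 646 and 709 in the control mice and 912, 748 and 983 in the high fat mice. The groups did not overlap, and the 1.37-fold difference (log2 0.46, SE 0.15) was not called (limma adjusted p = 0.11). Its other probe set was dim, at 52.4 to 138 over the 6 arrays, and had a log2 difference of -0.28 with a 95% interval from -1.23 to 0.67. Dgat2 had signals of 1321, 691 and 963 in the control mice and 1801, 1113 and 1282 in the high fat mice. These groups overlapped, with control replicate 1 above the high fat replicates 2 and 3, and the difference was not called (log2 0.52, SE 0.25, limma adjusted p = 0.235). The second Dgat2 probe set ranged from 364 to 749 in control and from 437 to 807 in high fat mice (log2 0.39, limma adjusted p = 0.421 over probe sets).

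On the lipolytic side, the adipose triglyceride lipase Pnpla2 gave 1267, 1479 and 2015 in the control mice and 2359, 1984 and 1827 in the high fat mice. Control replicate 3 was above 2 of the 3 high fat mice, and the difference was not called (log2 0.39, 95% interval -0.02 to 0.8, limma adjusted p = 0.211). A further Pnpla2 probe set, at 21.3 to 77.8, was too dim to be tested.

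Pnpla3 had signals of 113, 117 and 149 in the control mice and 299, 349 and 420 in the high fat mice. The lowest high fat mouse was above the highest control mouse. The mean went from 127 ± 19.5 to 356 ± 60.4 (SD, n = 3 each), a 2.81-fold rise with a 95% interval of 1.97-fold to 3.99-fold (limma adjusted p = 0.0107). It was called under all 17 alternatives that tested it, which include the 6 fits with 1 mouse left out. The highest limma adjusted p among them was 0.0482, without control replicate 2. Pnpla3 failed a filter at the 60th percentile of brightness and was not tested there. No other probe set named Pnpla3 alone.

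Lipe, the lipase that catecholamines activate and insulin restrains in adipocytes, gave 419, 486 and 689 in the control mice and 969, 820 and 848 in the high fat mice. The groups did not overlap. Its difference of 1.69-fold (log2 0.75, SE 0.19) narrowly missed the call over genes (limma adjusted p = 0.0516) and passed over probe sets (limma adjusted p = 0.0367). Without control replicate 3, the highest of the controls, it was log2 0.96 and called over genes (limma adjusted p = 0.0431). Lipe was called in 1 of the 6 fits with 1 mouse left out. In the others its limma adjusted p was 0.0935 to 0.149. A second Lipe probe set was dim and not tested, at 29.5, 33.9 and 34 against 41.9, 66.1 and 51.4.

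Abhd5, whose human gene is mutated in a neutral lipid storage disease, gave 976, 1093 and 1241 in the control mice and 1285, 1220 and 1183 in the high fat mice. The groups overlapped, and its difference was not called (log2 0.16, 95% interval -0.13 to 0.45, limma adjusted p = 0.458). The next Abhd5 probe set had the opposite sign, with a log2 difference of -0.25 and a 95% interval of -0.63 to 0.13 (limma adjusted p = 0.339 over probe sets). The last, at 3.37 to 42.7, was not tested.

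**Figure D2:**
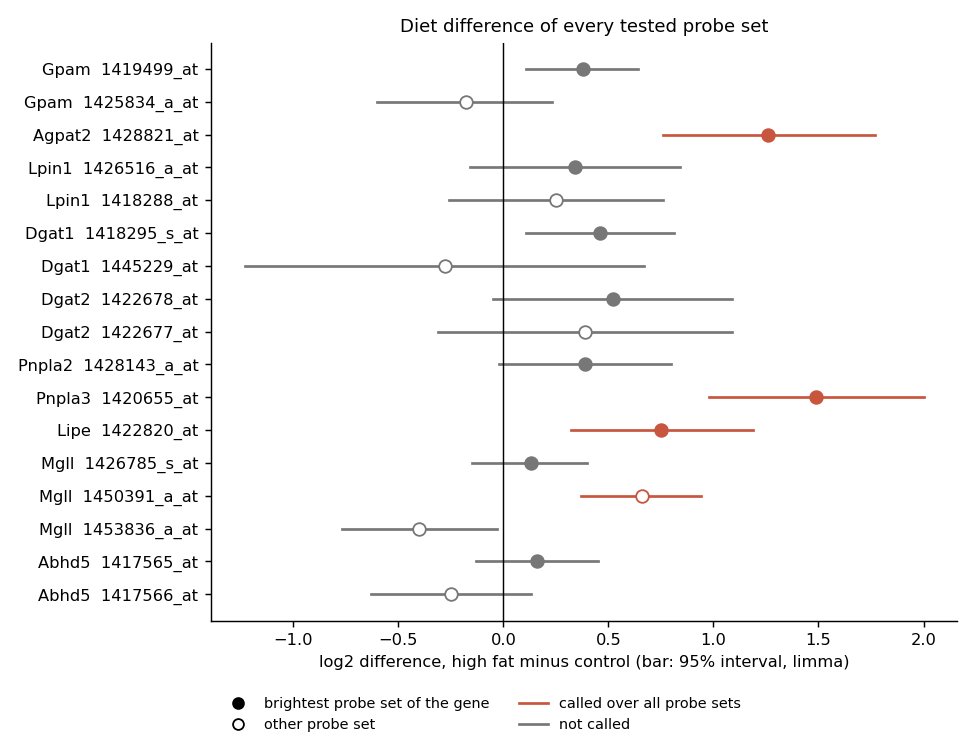
Log2 difference, high fat minus control, of the 17 tested probe sets of the 10 genes, with 95% intervals from limma; filled points are each gene's brightest probe set, and red marks a limma adjusted p under 0.05 over all probe sets. Those of Agpat2, Pnpla3 and Lipe and 1 probe set of Mgll are red and above 0, and the 3 probe sets of Mgll spread from -0.4 to 0.66.

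The probe sets of Mgll gave different answers. Mgll encodes monoacylglycerol lipase, which also degrades the endocannabinoid 2-arachidonoylglycerol. The brightest, 1426785_s_at, gave 2263, 2160 and 2676 in the control mice and 2525, 2436 and 2766 in the high fat mice, and was not called (log2 0.13, SE 0.12, limma adjusted p = 0.558). The suffix s marks a probe set that may match transcripts of several genes, and the suffix a marks one that matches alternative transcripts of the same gene. Probe set 1450391_a_at gave 1212, 1311 and 1544 against 2041, 2100 and 2242. Its groups did not overlap, and it was called higher over probe sets, at 1.58-fold (log2 0.66, SE 0.12, limma adjusted p = 0.0153). Without control replicate 2 it was log2 0.64 and not called (limma adjusted p = 0.062), nor was it without replicate 1 of both diets (log2 0.61, limma adjusted p = 0.0597). Probe set 1453836_a_at gave 1261, 1226 and 1816 against 1088, 1075 and 1043, lower in every high fat mouse, and was not called (log2 -0.4, SE 0.16, limma adjusted p = 0.132 over probe sets). The remaining Mgll probe set was not tested, at 50.6, 104 and 15 in the control mice and 12, 11.8 and 16.9 in the high fat mice.

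The log2 ratio of 1450391_a_at to 1453836_a_at within an array, relative to its control mean, was 0.01, 0.16 and -0.17 in the control mice and 0.97, 1.03 and 1.17 in the high fat mice. The groups differed by 1.06 without overlap. The pair was chosen for its divergence after the values were seen, so this is a description and was not tested. Such a ratio is untouched by any single factor that scales an array. In all, 4 of the 17 tested probe sets were called higher and 0 lower, against 4.63% and 8.27% of all 27022 tested probe sets. They were those of Agpat2, Pnpla3 and Lipe and this probe set of Mgll.

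**Figure D3:**
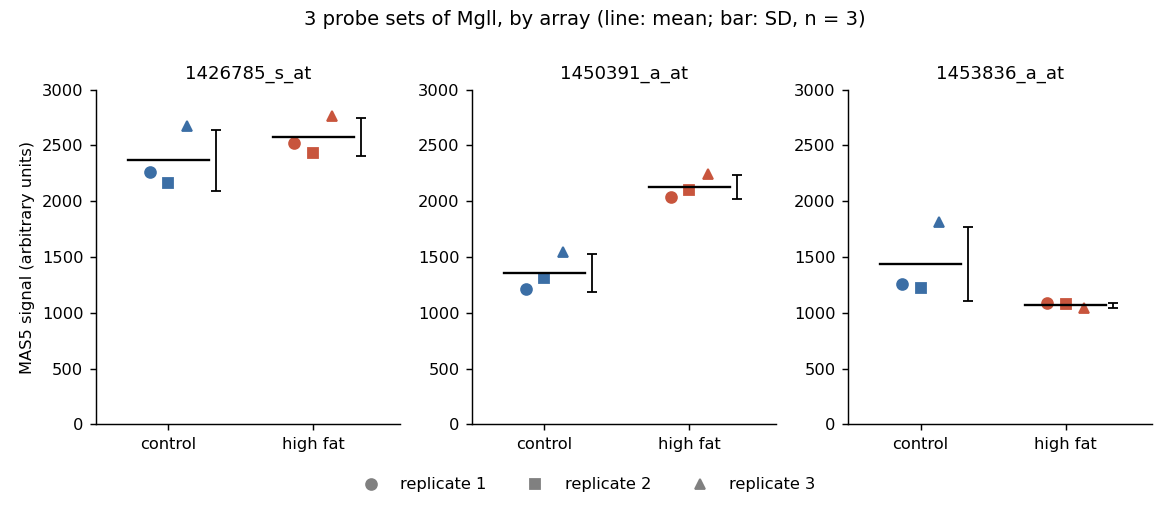
MAS5 signal (linear, arbitrary units, axis from 0) of the 3 tested Mgll probe sets on the 6 arrays, with group means as lines and SD (n = 3) as bars. High fat arrays are above all control arrays for 1450391_a_at (2041 to 2242 against 1212 to 1544) and below all of them for 1453836_a_at (1043 to 1088 against 1226 to 1816).

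Within-array ratios of related enzymes are given as a description. The pairs were chosen after their values were seen, so which gene has the larger difference was set by the choice, and no test is given. The log2 ratio of Pnpla3 to its paralogue Pnpla2, relative to the control mean, was 0.15, -0.02 and -0.13 in the control mice and 0.65, 1.13 and 1.51 in the high fat mice. That of Agpat2 to Agpat1, an enzyme of the same step, was 0.2, -0.64 and 0.45 against 1.36, 1.42 and 1.4. That of Gpat3, a glycerol-3-phosphate acyltransferase of the endoplasmic reticulum, to the mitochondrial Gpam was -0.32, 0.22 and 0.09 against 0.55, 0.49 and 0.81. The groups did not overlap in these pairs, with differences of 1.1, 1.39 and 0.62. Pnpla2, Agpat1 and Gpam were themselves not called.

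Genes around the 10 enzymes were taken from a list of 20 further genes of glycerolipid synthesis and droplet formation. Of 19 with a probe set, 16 were tested, 2 rose, 0 fell and 14 were not called, and the median log2 difference was 0.33. Over all tested genes, 4.56% were called higher and 2.2% lower, with a median of 0.056. Gpat3 rose 1.99-fold (limma adjusted p = 0.0186), with a mean of 246 ± 42 (SD, n = 3) in control and 486 ± 18.5 in high fat mice. Gpd1, the cytosolic enzyme that makes glycerol-3-phosphate, rose 2.61-fold (limma adjusted p = 0.0441). Its signals were 267, 175 and 284 in the control mice and 939, 374 and 673 in the high fat mice, and the high fat mice spread more widely than the controls. The other tested Gpd1 probe sets had log2 differences of 0.9 and 0.23 and were not called (limma adjusted p = 0.105 and 0.794 over probe sets), and the mean over probe sets gave log2 0.58 (limma adjusted p = 0.408). Its call was also lost with array weights (limma adjusted p = 0.0503) and without a trend (0.0995). Gpd1l, a relative of Gpd1 named after its values were seen, had a smaller and tighter difference that was not called (limma adjusted p = 0.0576), at 1587 ± 52.8 in control and 2081 ± 76 in high fat mice. This Gpd1l probe set passed over probe sets (limma adjusted p = 0.0413), and the other did not (0.486). Agpat1, also named after its values were seen, had a log2 difference of -0.13 with a 95% interval of -0.66 to 0.4, which turned to 0.06 with quantile normalization, 0.14 with median centring and 0.03 without control replicate 2. With 1 mouse left out, 0 or 1 of the 16 genes were called, against 1.03% to 2.86% of all tested genes called higher. Gpat3 was then called without high fat replicate 1 and without high fat replicate 3, and Gpd1 without high fat replicate 2. Without any 1 control mouse, neither was called, with limma adjusted p values up to 0.0589 for Gpat3 and 0.138 for Gpd1. Without replicate 1 of both diets 0 were called, against 1.95% of all tested genes called higher.

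A second list held 20 further lipases and regulators of lipolysis. Of 17 with a probe set, 15 were tested, 2 rose, 0 fell and 13 were not called, with a median log2 difference of 0.09. That median was close to the 0.056 of all tested genes, of which 4.56% were called higher and 2.2% lower. Cidec, which fuses lipid droplets in adipocytes and slows lipolysis, rose 3.1-fold (limma adjusted p = 0.0126), from signals of 128, 132 and 233 to 539, 414 and 526. Lipg, the endothelial lipase that acts mainly on phospholipids of high density lipoprotein, rose 1.92-fold (limma adjusted p = 0.0234), from 747, 736 and 796 to 1091, 1574 and 1817. The inhibitors of Pnpla2 and another droplet protein are named in addition, after their values were seen. G0s2 had a log2 difference of -0.07 (95% interval -0.51 to 0.37), which was 0.2 with median centring and 0.12 without control replicate 2, and Hilpda one of -0.56 (limma adjusted p = 0.14). Plin5, which binds Pnpla2 and Abhd5 on droplets, gave 157, 94.3 and 174 against 618, 228 and 413 and was not called (log2 1.5, limma adjusted p = 0.0505, and 0.0225 with the replicate number as a block). This Plin5 probe set passed over probe sets (limma adjusted p = 0.0358), and the other did not (0.399). With 1 mouse left out, 0 to 3 of the 15 genes were called, against 1.03% to 2.86% of all tested genes called higher. Cidec was not called without control replicate 2 (log2 1.5, limma adjusted p = 0.0554) or without replicate 1 of both diets (log2 1.41, limma adjusted p = 0.0617). Lipg was called in 1 of the 6 fits with 1 mouse left out, that without high fat replicate 1, and its log2 difference ran from 0.79 to 1.16 in these fits. The mean of all Lipg probe sets, which include a dim one, gave log2 0.14.

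**Figure D4:**
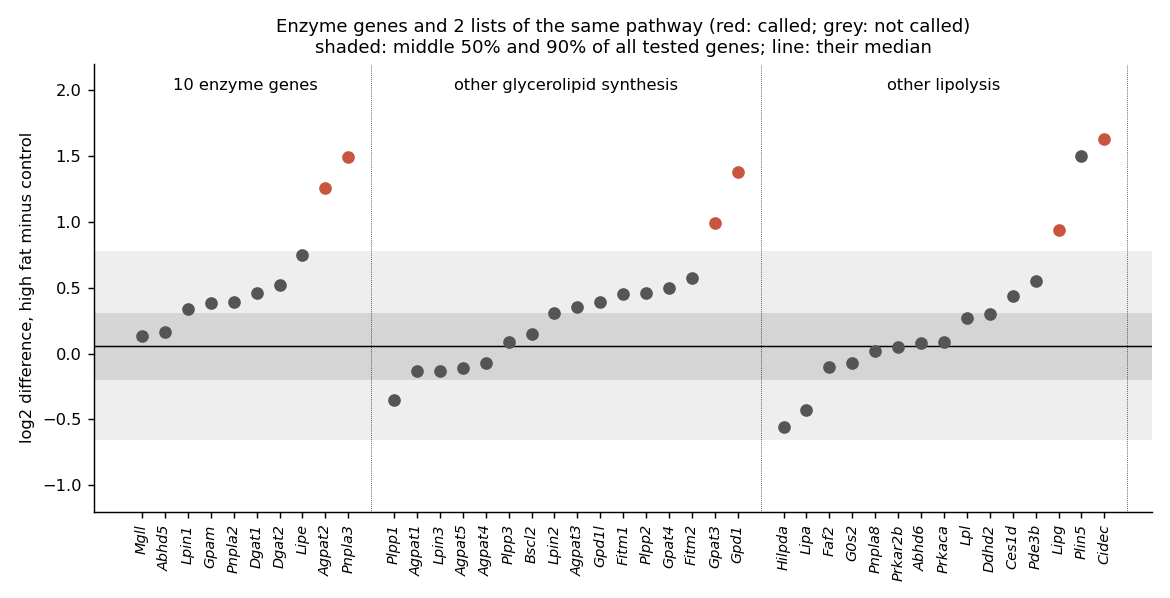
Log2 difference, high fat minus control, of the brightest probe set of the 10 enzyme genes and of the tested genes of the 2 further lists, with red for called and grey for not called; bands show the middle 50% and 90% of all 12689 tested genes and the line their median of 0.056. Pnpla3 and Agpat2 (1.49 and 1.26), Gpd1 and Gpat3 (1.38 and 0.99), and Cidec and Lipg (1.63 and 0.94) are the called genes.

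Several of these genes are at their highest in fat tissue, so adipocyte markers were set beside them. Of 13 markers, 11 had a probe set and 9 were tested, of which 7 rose and 0 fell (Adipoq, Retn, Fabp4, Plin4, Cidec, Mrap and Trarg1), by 2.79-fold to 9.71-fold. The shares of all tested genes were 4.56% called higher and 2.2% called lower. Retn was called in 7 of 18 alternatives, and with 1 mouse left out only without control replicate 3. Its limma adjusted p was 0.0484, and its log2 difference was 2.42, and 1.65 without control replicate 1 (limma adjusted p = 0.0505). The summed signal of the 11 was 2771, 3438 and 6636 in the control mice and 34781, 23862 and 24795 in the high fat mice, without overlap. Fabp4 carried the largest part of this sum on every array, at 1558, 1724 and 3510 against 19080, 14716 and 15066. Dimmer Fabp4 probe sets, outside the sum, had log2 differences of 2.6, 0.71 and 0.33. The first was called over probe sets and the others were not (limma adjusted p = 0.00214, 0.176 and 0.413). Leptin (Lep) was dim in the control mice, at 6.26, 7.86 and 34.2, against 279, 244 and 242 in the high fat mice, and was not tested. Elovl3, also below the filter, was 59.5 ± 15.3 in control and 59.9 ± 7.24 in high fat mice (SD, n = 3 each). The brown fat markers Ucp1 and Cidea were tested and not called (limma adjusted p = 0.0857 and 0.0601), and Ucp1 gave 2.73, 25.1 and 258 against 1199, 236 and 748. Over probe sets, Cidea passed (limma adjusted p = 0.0435) and Ucp1 did not (0.0631). Control replicate 3, which had the highest adipocyte sum of the control mice, was also the highest control for 8 of the 10 enzyme genes, all but Lpin1 and Dgat2. How often this mouse was the highest control over all tested genes was not counted, so the 8 has no background beside it. Among the high fat mice, replicate 1 had the highest adipocyte sum, and the highest enzyme signal was in replicate 1 for 4 genes, replicate 2 for 2 and replicate 3 for 4. The part of adipocyte transcripts in the differences of the enzyme genes was not tested. In whole lung, more cells of a type and more RNA per cell cannot be told apart.

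**Figure D5:**
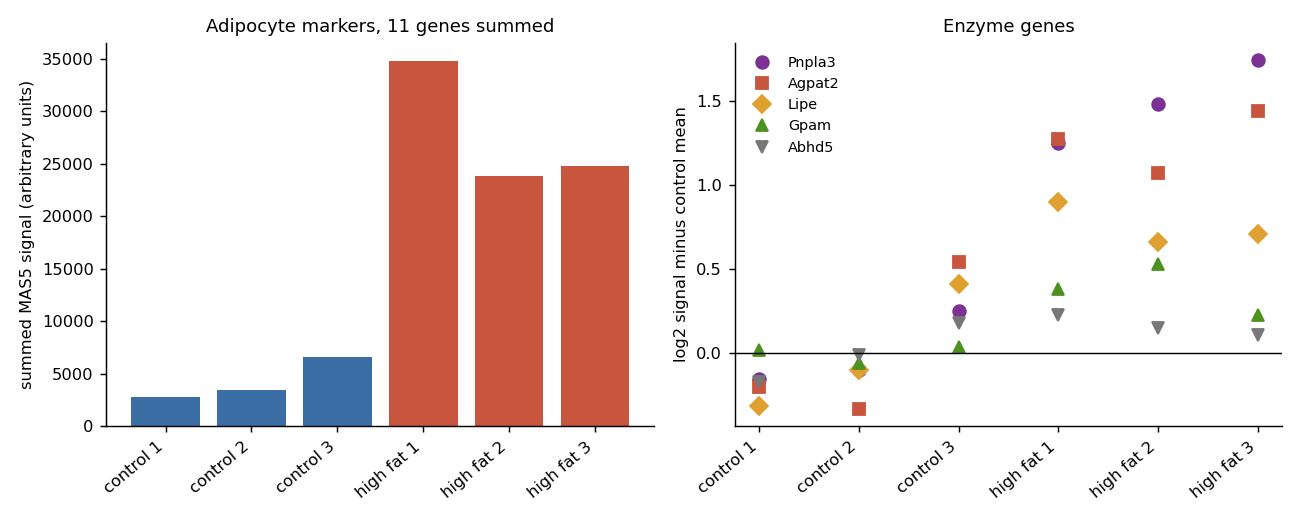
Left, summed MAS5 signal (linear, axis from 0) of 11 adipocyte markers on each array. Right, log2 signal, minus its control mean, of 5 of the 10 enzyme genes (Pnpla3, Agpat2, Lipe, Gpam and Abhd5). All 5 shown are highest among controls in replicate 3. Lpin1 and Dgat2, which are not, are left out of the plot. Adipocyte sums are 2771 to 6636 in control and 23862 to 34781 in high fat mice, and Agpat2 and Lipe are highest among controls in replicate 3, at 0.54 and 0.41. Fabp4 is the largest part of each sum.

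Other properties of the samples moved with diet as well. Mesothelial markers summed to 2410 to 2694 in control and 6451 to 10788 in high fat mice, and liver markers to 99 to 150 and 217 to 1209. Alveolar type II markers, at 101043 to 156544 and 135720 to 155200, overlapped, as did the sums of alveolar type I, club cell, endothelial, alveolar macrophage and fibroblast markers. Single markers within these sums were called, however. Of 4 alveolar macrophage markers, Siglecf and Krt79 fell (log2 -1.92 and -1.31, limma adjusted p = 0.0166 and 0.0123), while Chil3, which carries most of the sum, was not called. Of 4 endothelial markers, Pecam1 fell (log2 -0.6, limma adjusted p = 0.0346). Cdh5, Hopx and Pdgfra each had a dimmer probe set, outside the sums, that was called lower over probe sets. Their log2 differences were -1.75, -0.51 and -0.72 (limma adjusted p = 0.00365, 0.0376 and 0.0331). The brightest probe sets of Cdh5, Hopx and Pdgfra were not called. Heart muscle markers overlapped (15902 to 35651 and 33124 to 111569), with high fat replicate 1 highest and Myl7 called higher (log2 1.66, limma adjusted p = 0.0277), and skeletal muscle markers were highest in control replicate 1 (41456) and high fat replicate 1 (15188). RNA integrity was read from control probe sets at both ends of a transcript, and the 3′ over 5′ signal ratio was 0.768 ± 0.0259 in control and 0.915 ± 0.0538 in high fat mice for Gapdh (SD, n = 3 each). It did not overlap between the groups, and neither did that of b-Actin (means of 1.31 and 1.52). The part of these in the differences of the enzyme genes was not tested.

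Over the 6 arrays, the genes whose log2 signal, centred on its own mean, lay nearest to that of Pnpla3 were Vsig4, a complement receptor of macrophages, Eln, which encodes elastin, and Pigbos1, at Euclidean distances of 0.42, 0.45 and 0.45. Vsig4 gave 67, 55 and 74 in the control mice and 147, 165 and 165 in the high fat mice. Eln gave 521, 427 and 538 against 1251, 1072 and 1653. With 6 arrays in 2 groups, this nearness is given as a description only.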

How the data were processed

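The authors' deposited values are MAS5 intensities of the Affymetrix mouse array, per the submitters' processing notes and the labels. Which MAS5 version and settings were used is not given in the sources used here. On inspection, the deposited intensity values are linear and above 0, and without the highest and lowest 2 percent each array had a mean of 500. Groups came from the labels' source names. The number of arrays limits the precision, with 3 per group.

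Any signal under 1 was raised to 1 before taking log2. The 64 control probe sets were left out. Symbols were those of the platform annotation, updated by Entrez identifier through RefSeq (0 changed). Probe sets whose mean log2 signal reached the 40th percentile (6.14, a signal of 70.3) were tested, 27022 in all, and a gene was represented by its brightest one. The fit was limma 3.58.1 in R 4.3.3, lmFit and eBayes with an intensity trend, two-sided, diet as the only term, 4 residual degrees of freedom, Benjamini-Hochberg over genes or over probe sets. The code was tested on simulated data.

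The members, lists and pairs were chosen with earlier results of these data known. Named were all 10 members, the called genes of each list, and the 3 genes nearest to the called member with the smallest p. Gpd1l, Agpat1, G0s2, Hilpda, Plin5, Lep, Ucp1 and Cidea were added after their values were seen. Gk, Plin1, Adrb3, Cfd, Lamp3, Ear2 and Serpina1a had no probe set naming them alone. Alternatives changed normalization, offset, filter, variance model, array weights, block and probe set rule, or left out mice. The fit without replicate 1 of both diets was added after seeing the data, because these mice had the highest skeletal muscle signals.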

Additional observations from a re-analysis of the deposited data

How the results depend on the processing

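Counts of called genes moved with the settings, while most named differences kept their sign: 30 of 38 did so under every alternative run. The 38 include genes named because they were called, and genes and pairs chosen after their values were seen. This count was therefore set in part by the choice. All genes called numbered 857, and 3208 with median centring, 136 with eBayes without a trend, 515 when a gene was the mean over its probe sets, 1819 with the most variable probe set, 343 without replicate 1 of both diets, and 170 to 570 with 1 mouse left out. In the same order, enzyme genes called were 7, 1, 2, 4, 1 and 1 to 3, further synthesis genes 7, 0, 1, 5, 0 and 0 to 1 (1 with array weights), and further lipolysis genes 6, 1, 1, 3, 1 and 0 to 3. Signs turned for Mgll (-0.32) and Abhd5 (-0.2) with the mean over probe sets, and for Dgat1 (-0.28) and Abhd5 (-0.25) with the most variable one. These 2 settings draw on other probe sets of the same genes. Median centring turned Abhd5 1417566_at (0.02), Gpam 1425834_a_at (0.09), G0s2 (0.2) and Agpat1 (0.14), and quantile normalization turned Agpat1 (0.06). With 1 mouse left out, Lpin1 1418288_at ran from -0.01 (without high fat replicate 1) to 0.49, G0s2 from -0.3 to 0.12 and Agpat1 from -0.33 to 0.03 (the upper ends without control replicate 2). Replicate numbers are shared by both diets but name separate mice. Deviations of mice with the same number correlated at 0.17, 0.11 and -0.04, so the numbers were not taken as pairs. With the replicate block, 737 genes and the same 2 enzyme genes were called, Plin5 and Cidea were gained (limma adjusted p = 0.0225 and 0.0381) and Retn was lost (0.0677). No other named call changed with the block. Dim probe sets, under a signal of 70.3, were not tested.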
